A study of Mus musculus with 10 samples.

Results

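Sterol sensing, uptake and export were followed through 8 genes after acute loss of SOX2, a transcription factor of pluripotent cells. The genes were chosen by symbol: Insig1, Srebf1, Srebf2, Scap, Stard4, Mylip, Abca1 and Abcg1. Of the 8 symbols, 7 were found among the 40779 transcribed units (TUs) of the deposited table, 16137 of which carry a gene symbol, and all 7 passed the filter on low counts. Srebf1 had no TU of its own symbol and is treated separately. Nascent RNA had been measured by TT_chem-seq, in which 4-thiouridine marks newly made RNA for capture before sequencing by strand. The cells were E14 mouse embryonic stem cells (129/Ola), in which both copies of Sox2 carry an FKBP tag with HA epitopes and a fluorescent protein split off by P2A, grown without serum in medium with LIF, the MEK inhibitor PD0325901 and the GSK3-β inhibitor CHIR99021. The drug dTAG-13 directs FKBP-tagged SOX2 to the proteasome. There were 5 groups of 2 libraries. The controls (NT) received DMSO, and the others received 500 nM dTAG-13 for 0.5, 1, 2 or 6 h, counted as hours post depletion (hpd). Labelling with 2 mM 4-thiouridine lasted 10 min in every group. Per the methods, targeted lines were picked as homozygous clones, the medium was refreshed before treatment, and the start of depletion was staggered so that all groups ended together. No untagged cells with the drug were analysed here, so an effect of dTAG-13 and an effect of SOX2 loss cannot be told apart. Nothing in the labels says whether the 2 libraries of a group came from separate cultures, so p-values measure only the spread between libraries, which may be technical.

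The sterol regulatory element binding proteins (SREBPs) are made as membrane proteins of the endoplasmic reticulum and travel with their escort SCAP to the Golgi, where proteases free the part that activates genes of sterol synthesis and uptake. When sterols are plentiful, INSIG proteins hold SCAP and SREBP back. The same surplus activates the liver X receptors (LXRs), whose targets include the exporters ABCA1 and ABCG1 and the ubiquitin ligase MYLIP (IDOL), which limits lipoprotein uptake. In a response to sterol levels the SREBP targets and the LXR targets therefore usually move in opposite directions.

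The library totals ranged from 11131490 to 25854106 fragments, and each of the 7 genes held at least 454 fragments in every library. Levels are given as CPM, the counts relative to library size, scaled with TMM factors on the assumption that most TUs do not change. TUs were tested with edgeR's quasi-likelihood F-test over all 10 libraries, and calls needed a p under 0.05 after Benjamini-Hochberg adjustment over 28459 tested TUs. All adjusted p-values given here come from that fit unless another tool is named. Sox2 RNA, which the drug does not target, lay between 229 and 288 CPM in all 10 libraries and was not called at any time point, so it does not check the labels. Klf2, which encodes a pluripotency factor, fell by 2.58 ± 0.13 (SE) on the log2 scale after 0.5 h with an adjusted p of 1.3e-07. The summed level of 10 stem cell markers was 4337 to 4747 CPM in NT and 3647 to 3928 CPM after 6 h. Of these 10, 1, 3, 5 and 6 were called lower after 0.5, 1, 2 and 6 h, and none higher. Over all TUs 0.787%, 3.61%, 5.57% and 9.2% were called lower. Of 14 markers of other cell types, 7 were tested, and their sum was 17.4 to 22.7 CPM in NT. It was 29.4 to 29.5, 23.8 to 28.3, 25.1 to 30.6 and 22.5 to 27.25 CPM after 0.5, 1, 2 and 6 h. Eomes was called higher after 0.5, 1 and 2 h (log2 difference 1.52, 1.64 and 1.79, adjusted p = 0.0015, 1.8e-04 and 4.0e-05). Gata6 was called higher after 2 h (1.14, adjusted p = 0.030), and the other tested markers of this list were not called. The part of both marker lists in the results below was not tested. In bulk samples fewer cells of a type and less RNA per cell cannot be told apart.

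Insig1, Srebf2 and Stard4 were higher and Abca1 and Abcg1 lower within 1 to 2 h of SOX2 depletion, and most of these differences were smaller after 6 h. No gene of the 7 was called after 0.5 h, where 0.527% of all tested TUs were called higher and 0.787% lower. DESeq2 called 0 there too, while edgeR with the replicate number as a block called 1 higher (Insig1, adjusted p = 0.044), against 1.84% of all TUs. At an unadjusted p under 0.05 in edgeR 3 of the 7 were higher (Insig1, Srebf2 and Scap) and 0 lower. The share of all TUs at that unadjusted threshold was not counted. After 1 h 3 were called higher (Insig1, Srebf2 and Stard4), against 2.15% of all TUs, and 2 lower (Mylip and Abca1), against 3.61%. After 2 h the same 3 were called higher, against 4.26% of all TUs, and Abca1 and Abcg1 lower, against 5.57%. After 6 h Srebf2 alone was called higher, against 6.61%, and none lower, against 9.2%. DESeq2 called 0 lower there. In edgeR Abca1 was called lower with total counts (adjusted p = 0.013), a filter at a mean of 50 counts (0.035), only the libraries compared (0.021) and the replicate block (0.016). At an unadjusted p under 0.05 in edgeR 1 was lower (Abca1), and the share of all TUs at that threshold was not counted. A joint test of the 4 time points called 6 of the 7, all but Scap, against 12.3% of all TUs. The median log2 difference of the 7 genes was 0.22, 0.20, 0.24 and 0.23 after 0.5, 1, 2 and 6 h, and that of all tested TUs was -0.02, -0.04, -0.04 and -0.04.

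**Figure D1:**
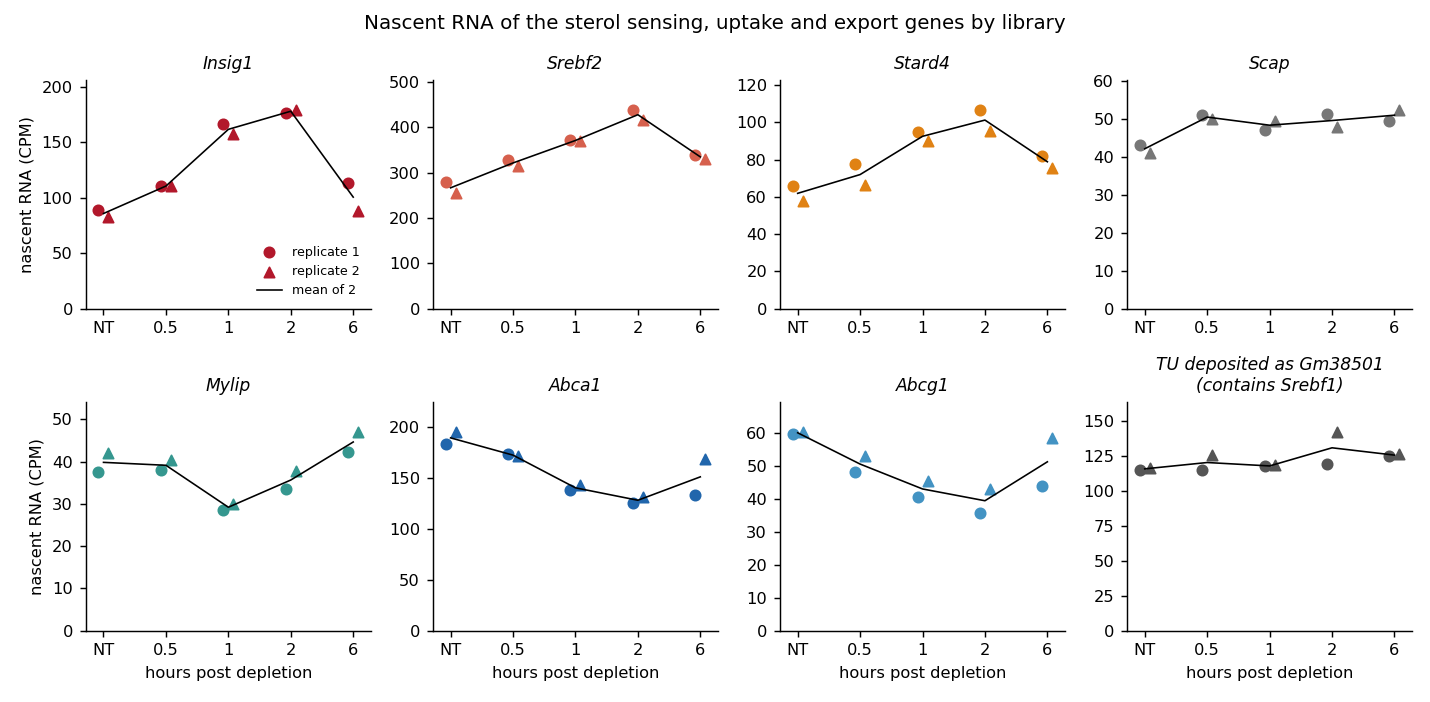
CPM of the 7 genes, and of the TU that contains Srebf1, in each of the 10 libraries (circles, replicate 1; triangles, replicate 2; line, mean of 2), against hours post depletion. Insig1 goes from 89.3 and 82.1 CPM in NT to 176 and 179 CPM after 2 h, while Abca1 moves from 184 and 196 CPM to 125 and 131 CPM; every axis starts at 0.

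Insig1 encodes the protein that retains SREBP and SCAP in the endoplasmic reticulum, and is itself a target of SREBP. Its level was 89.3 and 82.1 CPM in NT, 110 and 110 CPM after 0.5 h, 166 and 157 CPM after 1 h, 176 and 179 CPM after 2 h, and 113 and 88.1 CPM after 6 h. All 6 libraries of 0.5 to 2 hpd lay above the NT range, and 1 of the 2 libraries after 6 h lay within it. That range rests on 2 libraries, and the share of all tested TUs outside it was not counted. Positions against it are descriptions, here and for the genes below. The log2 difference from NT was 0.37 ± 0.12 after 0.5 h (adjusted p = 0.19), 0.91 ± 0.12 after 1 h (adjusted p = 2.2e-04) and 1.05 ± 0.12 after 2 h (adjusted p = 3.5e-05), a 2.08-fold level. After 6 h it was 0.23 ± 0.12 (adjusted p = 0.20; 95% interval -0.02 to 0.48).

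The later decline of Insig1 was itself called. From 2 to 6 hpd its level fell by 0.83 ± 0.12 on the log2 scale (adjusted p = 0.0028), where 0.517% of all TUs were called lower and 0.26% higher. From 1 to 6 hpd it fell by 0.69 ± 0.12 (adjusted p = 0.0026), against 2.92% of all TUs called lower. Insig1 was the only one of the 7 genes called lower in either of these comparisons. Without 6 hpd replicate 2, the lower of that pair, the difference between 6 and 1 hpd was -0.52 with an adjusted p of 0.0502, while the calls after 1 h, after 2 h and from 2 to 6 hpd were kept in each of 17 alternative fits.

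Srebf2 encodes SREBP2, the precursor that drives genes of sterol synthesis and uptake. It stood at 279 and 254 CPM in NT, 327 and 315 CPM after 0.5 h, 371 and 371 CPM after 1 h, 439 and 416 CPM after 2 h, and 339 and 331 CPM after 6 h. Every depleted library lay above both NT libraries. The log2 difference was 0.27 ± 0.10 after 0.5 h (adjusted p = 0.30), 0.48 ± 0.10 after 1 h (adjusted p = 0.0087), 0.68 ± 0.10 after 2 h (adjusted p = 3.8e-04) and 0.33 ± 0.10 after 6 h (adjusted p = 0.036). Between 2 and 6 hpd the difference of -0.35 ± 0.10 was not called (adjusted p = 0.14). Leaving out NT replicate 2, 1 hpd replicate 1 or 1 hpd replicate 2 ended the call after 1 h (adjusted p = 0.10, 0.10 and 0.096) and that after 6 h (adjusted p = 0.21, 0.072 and 0.072). The call after 6 h was also lost without 6 hpd replicate 1 (adjusted p = 0.13) or replicate 2 (adjusted p = 0.11), while that after 2 h was kept throughout.

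Scap, the escort of SREBP, had a smaller log2 difference after 1 and 2 h than Insig1, Srebf2 and Stard4, a comparison that was not tested. Its level was 43.1 and 41.1 CPM in NT and between 47.2 and 52.5 CPM in the 8 depleted libraries. All 8 lay above the NT range, which is a description only. The log2 differences of 0.26, 0.20, 0.24 and 0.28 after 0.5, 1, 2 and 6 h (SE 0.10 each) were not called, with adjusted p of 0.33, 0.32, 0.16 and 0.077. After 6 h the 95% interval of the log2 difference ran from 0.06 to 0.49.

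Stard4 encodes a soluble protein that carries cholesterol between membranes, and is also known as an SREBP target. Its TU spans 34.6 kb. It stood at 66.0 and 57.8 CPM in NT, 77.4 and 66.5 CPM after 0.5 h, 95.1 and 90.0 CPM after 1 h, 107 and 95.6 CPM after 2 h, and 82.1 and 75.6 CPM after 6 h. The depleted libraries all lay above the NT range, by a small margin for 0.5 hpd replicate 2. The log2 difference was 0.22 ± 0.11 after 0.5 h (adjusted p = 0.59) and 0.58 ± 0.11 after 1 h (adjusted p = 0.0058). It was 0.71 ± 0.11 after 2 h (adjusted p = 8.4e-04) and 0.35 ± 0.11 after 6 h (adjusted p = 0.051). After 6 h edgeR called Stard4 with a filter at a mean of 50 counts (adjusted p = 0.047), only the libraries compared (0.025) and the replicate block (0.0052). The call after 1 h was lost without NT replicate 2 (adjusted p = 0.087) or 1 hpd replicate 1 (adjusted p = 0.081), and that after 2 h was kept in all 17 alternative fits.

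Abca1 moves cholesterol and phospholipid out of the cell onto apolipoprotein A-I. Its level was 184 and 196 CPM in NT, 174 and 171 CPM after 0.5 h, 138 and 143 CPM after 1 h, 125 and 131 CPM after 2 h, and 134 and 169 CPM after 6 h. Every depleted library lay below both NT libraries. The log2 difference was -0.13 ± 0.11 after 0.5 h (adjusted p = 0.82), -0.43 ± 0.11 after 1 h (adjusted p = 0.035), -0.56 ± 0.11 after 2 h (adjusted p = 0.0048) and -0.32 ± 0.11 after 6 h (adjusted p = 0.065). The call after 1 h was near the threshold. It was lost under RLE factors (adjusted p = 0.058), with no filter (adjusted p = 0.052), and on leaving out either NT library (adjusted p = 0.094 and 0.26 for replicates 1 and 2) or either library of 1 hpd (adjusted p = 0.27 and 0.18). The call after 2 h was lost without NT replicate 2 (log2 difference -0.52, adjusted p = 0.060).

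Abcg1 passes cholesterol to high density lipoprotein particles. Its level was 59.8 and 60.4 CPM in NT, 48.2 and 52.9 CPM after 0.5 h, 40.5 and 45.6 CPM after 1 h, 35.8 and 43.1 CPM after 2 h, and 43.9 and 58.6 CPM after 6 h. Here too every depleted library lay below the NT range, with 6 hpd replicate 2 just under it. The log2 difference was -0.25 ± 0.14 after 0.5 h (adjusted p = 0.63), -0.48 ± 0.14 after 1 h (adjusted p = 0.053), -0.61 ± 0.14 after 2 h (adjusted p = 0.010) and -0.23 ± 0.14 after 6 h (adjusted p = 0.28). The call after 2 h was lost without NT replicate 2 (adjusted p = 0.078) or 2 hpd replicate 1 (adjusted p = 0.10). After 1 h Abcg1 was called with the replicate number as a block (adjusted p = 0.0022), with total counts (adjusted p = 0.031) and with only the libraries compared (adjusted p = 0.0053).

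Mylip, the ligase that limits lipoprotein uptake, had a shorter course. It stood at 37.5 and 42.1 CPM in NT, 38.0 and 40.3 CPM after 0.5 h, 28.5 and 30.0 CPM after 1 h, 33.4 and 37.9 CPM after 2 h, and 42.2 and 47.1 CPM after 6 h. Only the libraries of 1 hpd lay wholly below the NT range, and those of 6 hpd lay just above it. The log2 difference was -0.03 ± 0.11 after 0.5 h (adjusted p = 0.98), -0.45 ± 0.12 after 1 h (adjusted p = 0.032), -0.16 ± 0.11 after 2 h (adjusted p = 0.42) and 0.17 ± 0.11 after 6 h (adjusted p = 0.34).

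Between 1 and 6 hpd Mylip rose by 0.61 ± 0.11 on the log2 scale (adjusted p = 0.0053), where 1.96% of all TUs were called higher. Its call after 1 h was lost with DESeq2 (adjusted p = 0.057) and with no filter (adjusted p = 0.062). It was also lost on leaving out either NT library (adjusted p = 0.052 and 0.28 for replicates 1 and 2), either library of 1 hpd (adjusted p = 0.26 and 0.15) or 6 hpd replicate 1 (adjusted p = 0.056). The rise from 1 to 6 hpd was lost without 1 hpd replicate 1, 1 hpd replicate 2 or 6 hpd replicate 2 (adjusted p = 0.074, 0.053 and 0.071).

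**Figure D2:**
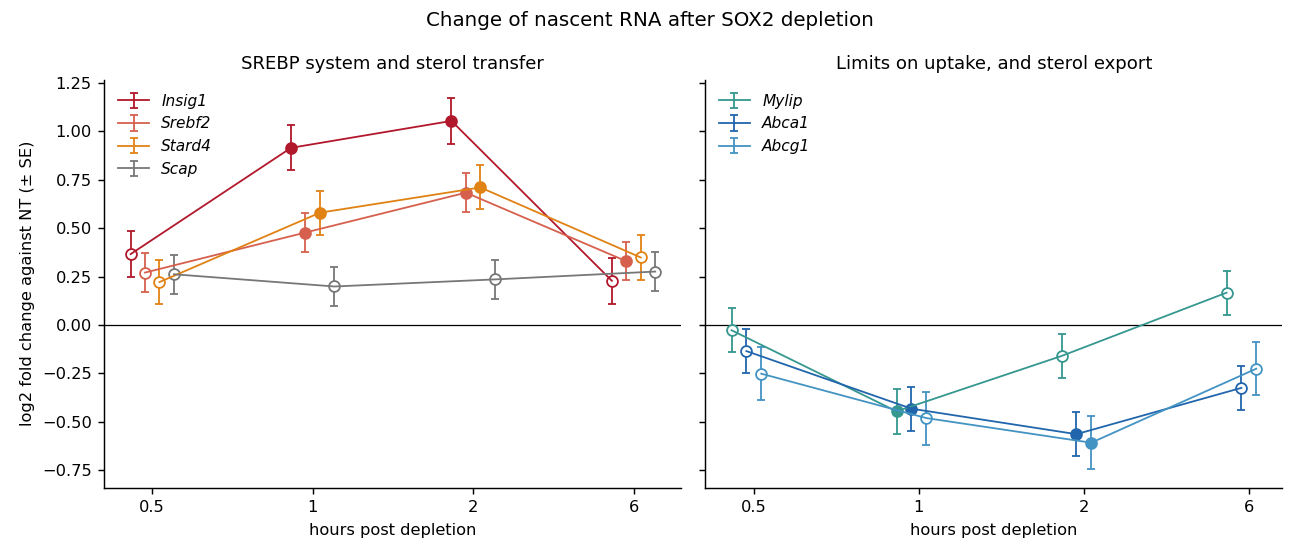
Log2 fold change of each gene against NT (± SE, edgeR, 2 libraries a group) by hours post depletion, with filled points for calls at an adjusted p under 0.05 and open points for the rest. Insig1 reaches 1.05 after 2 h and stands at 0.23 after 6 h, Abca1 and Abcg1 reach -0.56 and -0.61 after 2 h, and Mylip is lowest after 1 h with -0.45.

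The 2 libraries after 6 h differed from each other most clearly in Insig1, Abca1 and Abcg1. Replicate 2 was the nearer to NT for Insig1 (88.1 against 113 CPM), Abca1 (169 against 134 CPM) and Abcg1 (58.6 against 43.9 CPM). The ratio of 2 genes counted in the same library does not depend on the scaling between libraries. Insig1 over Abca1 was 0.486 and 0.420 in NT, 0.634 and 0.644 after 0.5 h, 1.20 and 1.10 after 1 h, 1.41 and 1.37 after 2 h, and 0.845 and 0.521 after 6 h. The ratio thus lay above the NT range in all 8 depleted libraries. Srebf2 over Abcg1 was 4.66 and 4.21 in NT, 12.3 and 9.67 after 2 h, and 7.72 and 5.64 after 6 h, again above NT throughout. Stard4 over Abca1 was 0.359 and 0.296 in NT, 0.852 and 0.729 after 2 h, and 0.615 and 0.447 after 6 h. These pairs were chosen with the levels known and are a description.

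**Figure D3:**
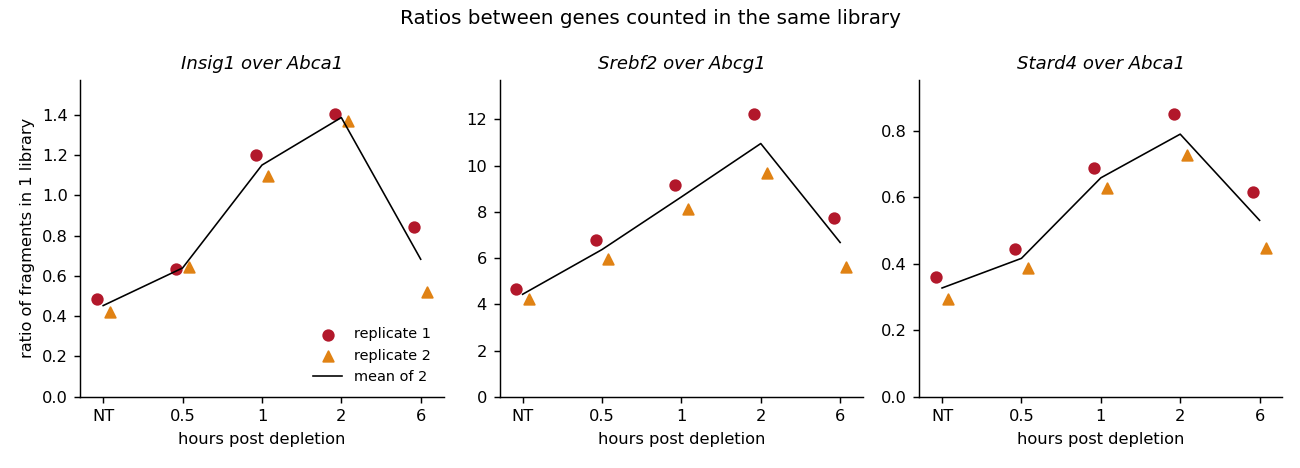
Ratio of the fragments of 2 genes within each library (circles, replicate 1; triangles, replicate 2; line, mean of 2), against hours post depletion. Insig1 over Abca1 lies at 0.486 and 0.420 in NT and at 1.41 and 1.37 after 2 h, and at 6 hpd replicate 2 lies below replicate 1 in all 3 ratios.

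Levels of different genes can be compared only per length of their TU. In NT, Insig1 had the highest level with 5.16 and 4.75 CPM per kb, followed by Srebf2 with 3.68 and 3.36 CPM per kb. Stard4 (1.91 and 1.67 CPM per kb) came next, then Mylip (1.38 and 1.55 CPM per kb) and Abca1 (1.34 and 1.43 CPM per kb), whose libraries overlapped. Abcg1 (0.886 and 0.895 CPM per kb) and Scap (0.654 and 0.623 CPM per kb) were lowest. Each TU ran past the annotated end of its transcript, by 4.9 kb (Mylip) to 22.2 kb (Stard4), so these values average over read-through RNA as well as the gene.

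In the course over all 10 libraries, Insig1 was most like genes of sterol synthesis. Among 11937 TUs with a symbol and a mean of at least 50 fragments, log2 CPM of Insig1 correlated best with Dhcr7 (Pearson r = 0.993), Hmgcs1 (0.989) and Lss (0.986). Srebf2 was most like Runx3 (0.983) and then Stard4 (0.969), and Stard4 most like Nsdhl (0.973) and then Cmip (0.973). For the exporters the nearest were Mcf2 (0.941) for Abca1 and Rnf125 (0.956) for Abcg1. Mylip was nearest to Pon3 (0.938) and Scap to Esrra (0.949). Among the 7 genes, Abca1 and Abcg1 had an r of 0.92 with each other, and of -0.876 and -0.908 with Insig1. The 10 libraries form 5 time groups and share their scaling, so these r values are descriptions of 1 time course.

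The deposited table gives Srebf1 no separate value. Srebf1 encodes SREBP1, which favours genes of fatty acid synthesis and is itself activated by LXR. The annotated gene (GRCm38, chromosome 11, 60199084 to 60224186, minus strand, 25.1 kb) lies wholly inside a TU of 64.6 kb (mm10, chromosome 11, 60193918 to 60258543) that was deposited under the name of a lncRNA gene, Gm38501, near its start. That TU also holds 31.8 kb of the 126.2 kb of Tom1l2, a gene of endosomal sorting that is transcribed in the same direction from upstream, and 3.9 kb of the 4.2 kb of Gm38501. Its fragments therefore sum RNA of 3 annotated genes and cannot be divided between them.

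**Figure D4:**
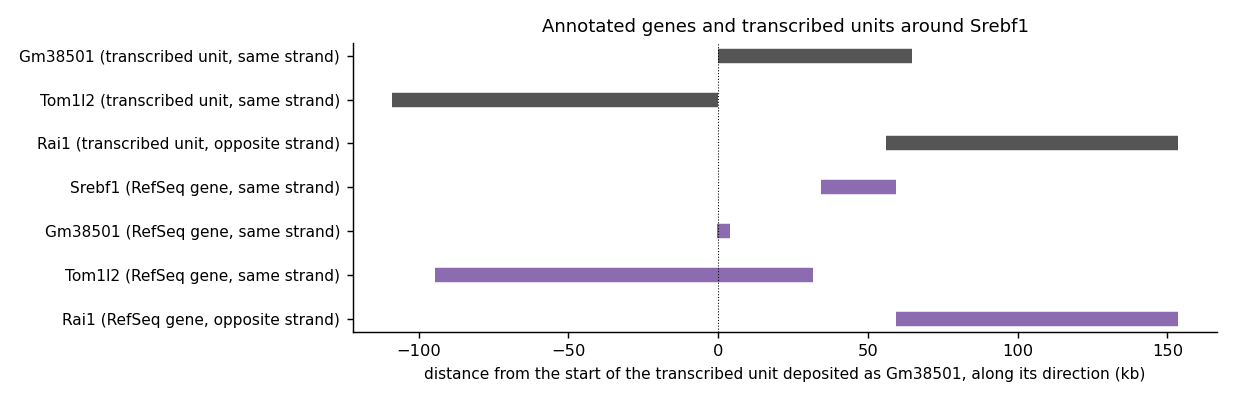
Deposited transcribed units (grey) and RefSeq genes (purple) around Srebf1, by distance in kb from the start of the unit deposited as Gm38501 along its direction of transcription. Srebf1 lies from 34.4 to 59.5 kb inside that unit of 64.6 kb, whose first 31.8 kb also hold the end of Tom1l2, and the unit of Rai1 on the opposite strand reaches over its far end.

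The TU deposited as Gm38501, which holds Srebf1, stood at 115 and 117 CPM in NT, 115 and 126 CPM after 0.5 h, 117 and 118 CPM after 1 h, 119 and 142 CPM after 2 h, and 125 and 126 CPM after 6 h. After 1, 2 and 6 h both libraries lay above the NT range, by a small margin after 1 h, and no difference was called at any time point. The log2 differences were 0.05, 0.03, 0.18 and 0.12 after 0.5, 1, 2 and 6 h (SE 0.11 each), with adjusted p of 0.95, 0.93, 0.33 and 0.49. After 2 h the 95% interval ran from -0.05 to 0.40. The TU named Tom1l2, upstream of it, was not called either (6 hpd log2 difference 0.38 ± 0.13, adjusted p = 0.055). Rai1, transcribed from the other strand across the last 8449 bp of the TU, rose by 0.44 ± 0.12 after 1 h (adjusted p = 0.044), 0.69 ± 0.12 after 2 h (adjusted p = 0.0016) and 0.86 ± 0.12 after 6 h (adjusted p = 1.8e-04). Rai1 encodes a chromatin regulator, and the counts were made by strand. For the other 7 genes, 12 TUs overlapped them from the opposite strand or started within 5 kb of their start. Of those, 8 passed the filter and none was called against NT. The lncRNA gene Gm35223, which overlaps the start of Insig1, was the only one of them at an unadjusted p under 0.05, with a log2 difference of 0.68 after 2 h (adjusted p = 0.073).

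Among partners of the 7 genes, Insig2, the second INSIG gene, Mbtps1 and Mbtps2, the proteases that free SREBP, and Nr1h2 and Nr1h3, the LXR genes, were not called at any time point. Their log2 differences after 2 h were 0.19, 0.18, -0.13, 0.05 and -0.49. Nr1h3 was the lowest of these at all 4 time points, at 2.39 to 3.79 CPM, with an SE of 0.25 after 2 h (adjusted p = 0.24).

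Among 23 other SREBP targets, most of them enzymes of sterol synthesis, 1 was called higher after 0.5 h, 20 after 1 h, 20 after 2 h and 1 after 6 h. Over all TUs 0.527%, 2.15%, 4.26% and 6.61% were called higher at these times, and 9.2% lower after 6 h. The median log2 difference of the 23 targets was 0.34, 0.71, 0.95 and 0.03 at the 4 time points. Hmgcs1, an early enzyme of sterol synthesis, had the smallest p of the list after 1 h (1.36 ± 0.13, adjusted p = 1.3e-05). After 6 h it was Ebp, a sterol isomerase gene, and the single target called lower (-0.66 ± 0.14, adjusted p = 0.0060). From 2 to 6 hpd 18 of the 23 were called lower, against 0.517% of all TUs, and from 1 to 6 hpd 18 of 23, against 2.92%. The log2 differences of Insig1, Srebf2 and Stard4 after 6 h were 0.23, 0.33 and 0.35, beside the list's median of 0.03, and these differences between genes were not tested.

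**Figure D5:**
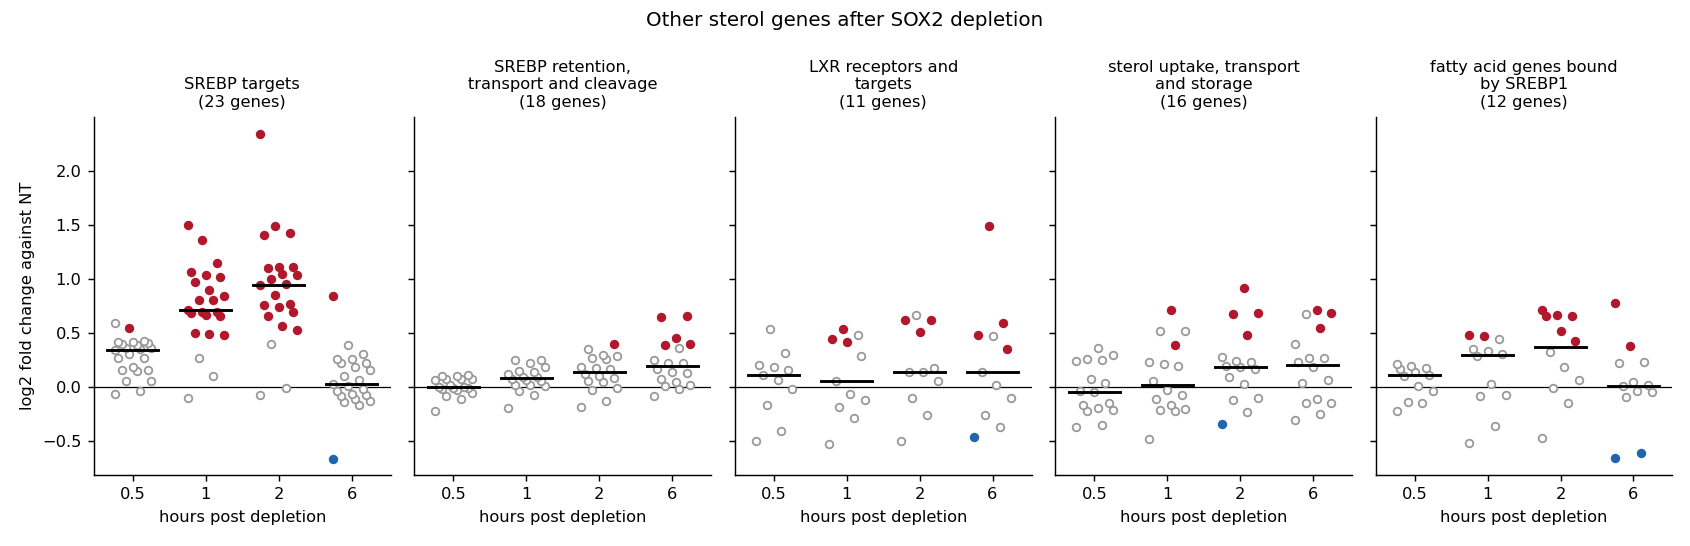
Log2 fold change against NT of every tested gene in 5 lists of sterol and lipid genes, by hours post depletion (red, called higher; blue, called lower; open, not called; bar, median of the list). The 23 SREBP targets have medians of 0.71 after 1 h and 0.95 after 2 h and 0.03 after 6 h, whereas the medians of the other 4 lists stay between -0.04 and 0.38.

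Apart from Abca1, Abcg1 and Mylip, no LXR receptor or target was called lower within 2 h. Of 16 such genes 11 were tested, of which 3 were called higher and none lower after 1 h, 3 and none after 2 h, and 4 and 1 after 6 h. Over all TUs 2.15%, 4.26% and 6.61% were called higher at these times, and 3.61%, 5.57% and 9.2% lower. The 1 of 11 called lower after 6 h is near that share. The 3 after 1 and 2 h were Lpcat3, Scd1 and Scd2, genes of phospholipid remodelling and fatty acid desaturation that SREBP1 also activates. Scd1 had the smallest p after 1 h (0.54 ± 0.12, adjusted p = 0.013) and Lpcat3 after 6 h (0.48 ± 0.10, adjusted p = 0.0034). The other genes called after 6 h were Scd2, Apoc1 and Arl4c (higher) and Rxra, the partner of LXR (lower, -0.46 ± 0.13, adjusted p = 0.029). These were named after their values were seen, as were Lpcat3 and Scd2 after 1 and 2 h.

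The machinery that retains, carries and cleaves SREBP was mostly uncalled early. Of 18 tested genes 0, 0, 1 and 5 were called higher after 0.5, 1, 2 and 6 h, and none lower, with median log2 differences of 0.00, 0.08, 0.14 and 0.20. Over all TUs 0.527%, 2.15%, 4.26% and 6.61% were called higher at these times, and 0.787%, 3.61%, 5.57% and 9.2% lower. The same shares apply to the uptake and fatty acid genes below. Sec23a, of the vesicle coat that leaves the endoplasmic reticulum, had the smallest p after 1 h (0.25 ± 0.11, adjusted p = 0.21). Of the 5 called after 6 h, 4 were the coat genes Sec23a, Sec24a, Sec24b and Sec24d. Of 16 tested genes of sterol uptake, transport and storage, 2 were called higher after 1 h, 4 higher and 1 lower after 2 h, and 3 higher after 6 h. The 1 of 16 called lower after 2 h is near the share of all TUs. Scarb1, a receptor for high density lipoprotein, had the smallest p at both 1 hpd (0.72 ± 0.10, adjusted p = 5.7e-04) and 6 hpd (0.68 ± 0.10, adjusted p = 3.7e-04). Of 12 tested fatty acid genes known to be bound by SREBP1, 2, 6 and 2 were called higher after 1, 2 and 6 h, and 2 lower after 6 h. Elovl6, a fatty acid elongase gene, led after 1 h (0.47 ± 0.11, adjusted p = 0.023) and Me1, the malic enzyme gene that supplies NADPH, after 6 h (0.78 ± 0.12, adjusted p = 5.0e-04).

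The promoters of the genes with the clearest courses are shown because the SREBP and LXR proteins act through short DNA motifs near starts. RefSeq promoters (GRCm38.p6, 250 bases before the start, 5′ to 3′ along the gene) were found for 6 of the 8 genes, in 9 versions. Motifs were searched on both strands: the E-box CACGTG (in 6.02% of all 32851 promoters), the SREBP core TCACNCCAC (1.05%), the NF-Y box CCAAT (33.8%), GGTCANNNNGGTCA (0.0457%) and the SOX cores ACAAAG (16.5%) and ACAATG (10.7%). After the promoters had been read, a looser core, TCACNCCA (3.67%), which overlaps the first, was added. A direct repeat with looser half-sites, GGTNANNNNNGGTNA (0.621%), was added too, and its gap is 5 bases in place of 4. It is called the looser direct repeat below. Capitals mark all matches other than the SOX cores.
Insig1, chr5:28071162-28071411, plus strand, with an NF-Y box and then an E-box in capitals: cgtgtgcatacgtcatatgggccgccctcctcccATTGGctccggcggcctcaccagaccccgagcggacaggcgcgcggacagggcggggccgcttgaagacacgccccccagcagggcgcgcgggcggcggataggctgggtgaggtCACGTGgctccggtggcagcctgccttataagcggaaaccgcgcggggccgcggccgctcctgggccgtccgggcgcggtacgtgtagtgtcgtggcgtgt
Srebf2, chr15:82147019-82147268, plus strand, with the looser SREBP core and then an NF-Y box in capitals: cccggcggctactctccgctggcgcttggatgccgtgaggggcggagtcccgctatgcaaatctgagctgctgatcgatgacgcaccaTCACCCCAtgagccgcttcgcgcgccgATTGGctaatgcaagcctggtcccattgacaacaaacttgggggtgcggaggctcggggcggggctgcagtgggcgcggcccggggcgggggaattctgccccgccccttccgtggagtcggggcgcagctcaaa
Abca1, chr4:53159896-53160145, minus strand, with an E-box and then the looser direct repeat in capitals: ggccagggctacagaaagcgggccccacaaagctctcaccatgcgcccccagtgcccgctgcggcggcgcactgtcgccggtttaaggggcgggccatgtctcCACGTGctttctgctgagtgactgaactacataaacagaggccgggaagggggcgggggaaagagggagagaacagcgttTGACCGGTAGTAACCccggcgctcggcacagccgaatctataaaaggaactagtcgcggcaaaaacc

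Counted from the start, with negative positions before it, the first base of the NF-Y box in Insig1 was at -216 and that of the E-box at -101. In Srebf2 the looser core began at -162 and the NF-Y box at -135. In Abca1 the E-box began at -147 and the direct repeat at -67, and ACAAAG, which was not put in capitals, at -224. Mylip had 3 NF-Y boxes and Scap an E-box in 1 of its promoters. Of the 3 promoters of Srebf1, 2 held an NF-Y box and 1 the looser direct repeat. No member's promoter held TCACNCCAC or GGTCANNNNGGTCA within these 250 bases. The second pattern leaves 4 bases between its half-sites, where the added repeat leaves 5. Its absence therefore does not show that a repeat with the wider gap is lacking. A match is a description of letters, and binding was not measured here.

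The TU of Srebf2 (mm10, chromosome 15, 82147619 to 82223281, plus strand, 75.7 kb) also contains the miR-33 gene, which lies within an intron of Srebf2. Its mature product miR-33-5p is known to lower ABCA1, so that 1 transcript carries both a sterol activator and a repressor of export. Both mature sequences (RefSeq, GRCm38.p6) are shown with the seed, bases 2 to 8, in capitals.
mmu-miR-33-5p, chr15:82198127-82198147, plus strand: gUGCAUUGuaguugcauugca
mmu-miR-33-3p, chr15:82198167-82198188, plus strand: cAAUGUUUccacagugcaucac
The fragments of the Srebf2 TU, 439 and 416 CPM after 2 h against 279 and 254 CPM in NT, include RNA of this intron, and neither miRNA was measured on its own.

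The positions of further TUs, on mm10, were chromosome 5, 28071370 to 28088665, plus strand (Insig1), chromosome 9, 110333318 to 110399298, plus strand (Scap), chromosome 13, 45389753 to 45416885, plus strand (Mylip), chromosome 4, 53023413 to 53160400, minus strand (Abca1), and chromosome 17, 31057752 to 31125212, plus strand (Abcg1). Each was annotated by the authors as a TU of a single gene. Deposited starts are likely to be 1 bp low when counted from 1.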

How the data were processed

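Nascent RNA was measured by TT_chem-seq in 10 libraries (5 groups of 2). The authors deposited raw counts of fragments in each TU. Per their methods, reads were aligned to mm10 with BWA, filtered with SAMtools and cleared of duplicates with Picard, and were counted by strand within TUs defined on pooled data. The submitters' processing notes give BWA 0.7.17-r1188, SAMtools 1.10 and Picard 2.12.0. TU positions (base pairs), symbols and annotations were also deposited by the authors.

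The filter asked for over 10 fragments in 2 or more libraries, which 28459 TUs passed. The other 12320 held 0.316% of fragments. The fit used edgeR 4.0.16 (R 4.3.3), TMM factors of 0.913 to 1.06 and 1 coefficient per group over all 10 libraries. Each time point was tested against NT and against other time points, and the 4 time points jointly, with Benjamini-Hochberg adjustment over all tested TUs. The SE is the log2 fold change over the square root of F, and the biological coefficient of variation was 10.0%. Depth set the precision (11131490 to 25854106 fragments per library), and intervals do not cover unknown batches. Replicate pairs differed by more than counting error (chi-square per degree of freedom 2.69 to 9.03), so none was a duplicate. Alternatives were no filter, a filter at a mean of 50 counts, DESeq2 1.42.0, RLE factors, total counts, fits of the compared groups alone, a replicate block, and leaving out each library. The procedure was tested on simulated data.

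The genes and lists were chosen with earlier results of these data known. Named genes were the 8 listed, fixed partners, the gene with the smallest p of each other list at 1 and at 6 hpd, opposite-strand neighbours, the 3 TUs most alike to each gene (Pearson r of log2 CPM, prior count 2), Sox2 and Klf2. Some genes named by this rule are not reported here. Promoters and miRNAs came from RefSeq tables of GRCm38.p6 (Python 3.11.15).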

Additional observations from a re-analysis of the deposited data

Results flagged for a closer look

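Of the genes followed, 3 differences between depletion time points passed the test of the difference itself (edgeR's quasi-likelihood test, 2 libraries a group), so that the effect of depletion differed between times. Insig1 was lower at 6 than at 2 hpd, with a log2 difference of -0.83 (113 and 88.1 against 176 and 179 CPM; lower in 2 of 2 libraries). It was also lower at 6 than at 1 hpd, with a log2 difference of -0.69 (against 166 and 157 CPM). Mylip was higher at 6 than at 1 hpd, with a log2 difference of 0.61 (42.2 and 47.1 against 28.5 and 30.0 CPM). Srebf2, Stard4, Abca1 and Abcg1 differed between 6 and 2 hpd by -0.35, -0.36, 0.24 and 0.38, none of which passed. Groups of 2 were too small for a test of outlying libraries.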

How the results depend on the processing

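The calls of Insig1 at 1 and 2 hpd and from 2 to 6 hpd, and those of Srebf2 and Stard4 at 2 hpd, were kept in all 17 alternative fits. The calls at 1 hpd of Mylip and Abca1 were the least stable, with 10 and 11 of 17 fits. For counts of the 7 genes, DESeq2 and RLE factors left 1 called lower at 1 hpd and no filter left 0, against 2. Over all TUs these 3 settings called 2.42%, 3.35% and 2.42% lower, against 3.61%. At 6 hpd 1 was called higher in the reported fit and 2 with a stricter filter (mean of 50 counts). With only the libraries compared 2 were called higher, and with the replicate block 3. The number called lower, 0 in the reported fit, was 1 under each of these 3 settings and under total counts. Over all TUs the 3 settings called 9.67%, 9.96% and 11.9% higher, against 6.61%. They called 11.8%, 11.7% and 14.2% lower and total counts 10.9%, against 9.2%. DESeq2 and the libraries compared alone each called 1 higher from 0.5 to 1 hpd (reported fit 0). Leaving out single libraries gave 1 to 3 higher and 0 to 3 lower at 1 hpd, 0 to 2 lower at 2 hpd, 0 to 3 higher and 0 to 1 lower at 6 hpd, and 0 to 1 in either direction between 1 and 6 hpd. A lone library was assumed to vary like the other groups. The joint test called 4 to 6 of the 7 genes in every alternative. The cause of these changes was not tested.

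The labels do not say whether replicate numbers pair the libraries. Deviations of the same number correlated positively in all 10 pairs of groups, by 0.054 to 0.66, 8 of them over 0.1. Libraries of the same number thus shared part of their deviation, which the reported fit does not model. With the replicate number as a block, 1 of the 7 genes was called higher at 0.5 hpd, and 3 higher and 1 lower at 6 hpd. That fit called 2 higher and 1 lower from 0.5 to 1 hpd, and 2 higher and 3 lower from 2 to 6 hpd. Over all TUs it called 1.84%, 5.06%, 9.53% and 11.9% higher at 0.5, 1, 2 and 6 hpd, against 0.527%, 2.15%, 4.26% and 6.61% in the reported fit. It called 2.09%, 6.14%, 9.6% and 14.2% lower, against 0.787%, 3.61%, 5.57% and 9.2%. The block called 7 SREBP targets higher at 0.5 hpd and 3 at 6 hpd, 4 retention genes higher at 2 hpd, 1 uptake gene higher at 0.5 hpd, 5 higher and 1 lower at 6 hpd, and 6 fatty acid genes higher and 1 lower at 1 hpd and 1 lower at 2 hpd.

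In the other lists, SREBP targets called higher at 0.5 hpd (1) became 0 with RLE factors and 2 with the stricter filter, and those at 6 hpd (1) became 0 with DESeq2 or total counts and 2 with the libraries compared. Retention genes called higher became 1 at 1 hpd with the libraries compared (0 reported), and at 2 hpd (1 reported) 0 with that setting, with total counts or with no filter. LXR genes called higher at 6 hpd (4) became 1 with total counts and 2 with the stricter filter, and DESeq2 called 0 lower. Uptake genes called higher with total counts were 1 at 1 hpd and 2 at 2 hpd. The uptake gene called lower at 2 hpd was lost (0) with DESeq2, RLE factors, no filter or the libraries compared, and 1 was called lower at 6 hpd with total counts, with the stricter filter and with the libraries compared. Fatty acid genes called higher were 6 at 1 hpd with the libraries compared and 1 at 6 hpd with the stricter filter. DESeq2 called 1 of them lower at 6 hpd. Over all TUs the libraries compared called 7.23% higher at 1 hpd, against 2.15% in the reported fit. Leaving out single libraries gave 0 to 1, 0 to 2 and 0 to 1 for SREBP targets (higher at 0.5 hpd, higher and lower at 6 hpd), 0 to 5 and 0 to 6 for retention genes higher at 2 and 6 hpd, and 0 to 3 (higher, 1 hpd), 0 to 1 (lower, 2 hpd), 1 to 5 (higher, 6 hpd) and 0 to 1 (lower, 6 hpd) for LXR genes. For uptake genes it gave 1 to 3, 1 to 4 and 1 to 4 higher at 1, 2 and 6 hpd and 0 to 1 lower at 2 and 6 hpd, and for fatty acid genes 0 to 5, 2 to 7 and 1 to 2 higher at 1, 2 and 6 hpd and 0 to 2 lower at 6 hpd.

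Total counts moved the median of all TUs to -0.06, -0.13, -0.16 and -0.13 at 0.5, 1, 2 and 6 hpd, against -0.02, -0.04, -0.04 and -0.04. Changes of sign were limited to uncalled values. Under total counts the log2 difference was -0.063 for the Gm38501 TU at 1 hpd, -0.043 for Mbtps1 and -0.068 for Mbtps2 at 6 hpd, and -0.053 for Nr1h2 at 2 hpd. With the stricter filter it was -0.0038 for Mbtps1 and -0.029 for Mbtps2 at 6 hpd. With the libraries compared alone it was 0.0032 for Insig2 and 0.0083 for Nr1h2 at 0.5 hpd, and -0.00087 for Mbtps2 at 6 hpd. Leaving out single libraries gave -0.0011 to 0.094 for Scap (6 against 2 hpd), -0.11 to 0.064 for Mylip (0.5 hpd), -0.073 to 0.26 for Abca1 (6 against 1 hpd), -0.21 to 0.21, -0.080 to 0.34 and -0.0078 to 0.42 for Insig2 (0.5, 1 and 2 hpd), -0.12 to 0.066 and -0.042 to 0.12 for Mbtps2 (1 and 6 hpd), and -0.078 to 0.078 and -0.13 to 0.21 for Nr1h2 (0.5 and 2 hpd). Among the fixed partners depth limits Nr1h3 most, at 3.78 to 4.11 CPM in NT. Other genes named above were lower still in NT: Arl4c at 1.21 and 0.29 CPM, Gata6 at 1.14 and 1.16 CPM and Eomes at 2.15 and 2.69 CPM.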
